A study of Mus musculus with 28 samples.

Results

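The genes described here are the olfactory receptor genes of mouse chromosome 9. They were taken from a RefSeq gene table of the GRCm38.p6 assembly as every gene on that chromosome whose symbol begins with Olfr and is not marked as a pseudogene by -ps. The rule gave 133 genes of the 49554 on chromosomes 1 to 19 and X, of which 129 were annotated as protein coding, 3 as transcribed pseudogenes and 1 as a miscellaneous RNA. Olfactory receptors are G-protein-coupled receptors that bind odorants on sensory neurons of the nose. Their genes have a single coding exon and stand in tandem clusters, and each olfactory neuron expresses 1 allele of 1 receptor gene while the others stay silent. In olfactory neurons of the mouse the silent receptor genes carry heterochromatin marks, among them trimethylated lysine 9 of histone H3.

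The study measured that mark (H3K9me3) and acetylation of the same residue (H3K9Ac, a mark of active promoters and enhancers) by chromatin immunoprecipitation and sequencing of chromatin cut with micrococcal nuclease. The cells were 2 mouse tumour lines, MC38 from a colon adenocarcinoma and B16OVA from a melanoma, called B16 here. Neither is an olfactory cell. The 4 groups were MC38 Setdb1 KO and MC38 control, and B16 Setdb1 KO and B16 control. KO cells carried a construct with a guide against Setdb1, which encodes an H3K9 methyltransferase. Controls carried the empty pCRISPR-v2-puro construct, and all groups were grown in puromycin. Each group had 3 numbered libraries per mark, 24 in all. The 4 input samples of the series were not analysed here. Whether the numbered libraries came from different cultures is not stated, and p-values measure only the spread between these libraries.

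Libraries held 15200766 to 45419584 reads in H3K9me3 islands, which are stretches called as enriched, and 28453371 to 78087809 in H3K9Ac islands. The length under H3K9me3 islands was 563, 442 and 215 Mb in MC38 Setdb1 KO libraries 1, 2 and 3, the highest and the lowest of all 12 being KO 1 and KO 3. It was 345, 344 and 452 Mb in MC38 controls, 431, 367 and 406 Mb in B16 Setdb1 KO and 325, 326 and 285 Mb in B16 controls. All 8 melanocyte markers had H3K9Ac islands in every B16 library and lower H3K9Ac in MC38 than in B16 by edgeR's test. Of 11 gut epithelium markers, 9 had H3K9Ac islands in all 3 libraries of either MC38 group and 8 in all 3 of either B16 group, and 1 was higher in MC38. H3K9Ac at Setdb1 averaged 111 ± 5.24 RPM in MC38 KO and 96.2 ± 7.73 RPM in MC38 control, and 78.8 ± 8.98 RPM in B16 KO and 76.6 ± 5.06 RPM in B16 control (SD, n = 3 libraries each). A histone mark over the gene does not show whether a guide has cut it, so the knockout could not be checked in these files.

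The receptor genes lay in 2 clusters, taken as runs with less than 1 Mb between neighbours. Cluster 1 held 36 genes over 1.58 Mb, from Olfr24 to Olfr18 (chr9:18754692-20336094). Cluster 2 held 97 genes over 2.48 Mb, from Olfr160 to Olfr986 (chr9:37711348-40188094), and 17.4 Mb separated the clusters. The median gene was 0.948 kb long. Island reads were counted over each gene with 2 kb on both sides, a median region of 4.95 kb. Only 2 of the 133 regions overlapped another one of the set, and none held another protein-coding gene.

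RefSeq promoter sequences, which run from 250 bases before the start of a transcript to 50 after it, were available for 108 of the 133 genes (109 promoters). Their median GC content was 34.0%, against 35.3% in receptor promoters of other chromosomes and 52.7% over all promoters. No CpG at all was present in 34.9% of them, against 33.1% and 5.43%. The TATA box letters TATAAA, on either strand, were in 45.0% of chromosome 9 receptor promoters, 40.7% of other receptor promoters and 13.6% of all promoters. TAATTA, a homeodomain core that Lhx2 and Emx2 type factors bind in mouse receptor promoters, was in 25.7%, 17.7% and 5.29%. The palindromic core of the Ebf site, searched in its letters with a 2-base spacer, was in 0 of 109 here, 0.598% of other receptor promoters and 0.904% of all. Motifs were searched independently and may overlap each other. These are letter matches and not binding sites. The promoters below are shown because the results below turn on their genes, written 5′ to 3′ along the gene (GRCm38.p6). Olfr983 (chr9:40093509-40093808, minus strand) was the receptor with the most H3K9Ac, Olfr920 (chr9:38752546-38752845, plus strand) differed in H3K9me3 between the lines, and Olfr39 (chr9:20282101-20282400, plus strand) had an H3K9me3 island on its promoter in 3 of 3 B16 KO libraries and in 0 of 3 B16 controls. Capitals mark TAATTA, and none of the 3 motifs was found in the promoters of Olfr983 and Olfr920.
Olfr983: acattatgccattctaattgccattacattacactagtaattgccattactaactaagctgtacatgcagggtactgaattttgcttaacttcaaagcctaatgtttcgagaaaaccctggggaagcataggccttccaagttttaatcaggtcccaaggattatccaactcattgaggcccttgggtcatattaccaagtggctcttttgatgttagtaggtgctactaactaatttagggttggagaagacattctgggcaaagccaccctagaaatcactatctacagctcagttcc
Olfr920: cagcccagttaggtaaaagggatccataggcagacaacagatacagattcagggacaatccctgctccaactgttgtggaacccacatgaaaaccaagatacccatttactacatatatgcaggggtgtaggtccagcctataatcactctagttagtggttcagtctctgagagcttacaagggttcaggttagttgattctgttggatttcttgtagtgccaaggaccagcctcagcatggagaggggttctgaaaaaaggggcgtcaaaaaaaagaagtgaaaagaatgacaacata
Olfr39: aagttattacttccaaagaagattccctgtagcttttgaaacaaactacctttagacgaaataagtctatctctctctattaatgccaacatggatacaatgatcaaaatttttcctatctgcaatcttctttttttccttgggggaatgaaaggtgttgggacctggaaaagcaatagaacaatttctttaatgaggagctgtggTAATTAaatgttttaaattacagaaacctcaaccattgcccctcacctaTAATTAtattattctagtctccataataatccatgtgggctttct

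The neighbours Olfr875 (chr9:37772387-37772686, plus strand) and Olfr876 (chr9:37803639-37803938, plus strand), which had H3K9me3 islands in all 6 B16 libraries, are shown because their promoters share the longest identical run in the set. That run of 124 bases, positions 177 to 300 of both promoters, is in capitals. In all, 12 pairs of promoters shared a run of at least 30 bases, and 23 of the 108 genes were in such a pair. Reads from such copies can be assigned to either gene, and how the authors treated them is not given in the sources used here, so values of single receptors with close copies are uncertain.
Olfr875: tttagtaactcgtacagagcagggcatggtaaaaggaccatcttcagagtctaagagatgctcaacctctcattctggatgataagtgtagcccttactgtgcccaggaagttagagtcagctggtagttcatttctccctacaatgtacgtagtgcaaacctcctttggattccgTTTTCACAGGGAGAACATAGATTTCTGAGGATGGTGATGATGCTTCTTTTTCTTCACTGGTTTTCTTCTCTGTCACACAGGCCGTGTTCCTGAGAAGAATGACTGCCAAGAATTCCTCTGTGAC
Olfr876: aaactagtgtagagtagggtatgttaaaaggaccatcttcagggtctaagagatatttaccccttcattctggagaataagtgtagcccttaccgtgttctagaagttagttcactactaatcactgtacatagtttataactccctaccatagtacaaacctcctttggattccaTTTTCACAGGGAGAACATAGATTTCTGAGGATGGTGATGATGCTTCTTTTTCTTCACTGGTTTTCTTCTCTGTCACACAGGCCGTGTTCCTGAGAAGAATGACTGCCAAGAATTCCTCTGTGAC

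H3K9me3 over the receptors was patchy and differed widely between libraries of 1 group. An island overlapped 94, 29 and 2 of the 133 receptor regions in MC38 Setdb1 KO libraries 1, 2 and 3, and 35, 11 and 51 in the MC38 controls. In B16 Setdb1 KO it overlapped 67, 43 and 45, and in B16 controls 40, 39 and 25. The means were 41.7 ± 47.3 and 32.3 ± 20.1 genes in MC38 KO and MC38 control, and 51.7 ± 13.3 and 34.7 ± 8.39 genes in B16 KO and B16 control (SD, n = 3). The MC38 groups overlapped completely, with both the highest and the lowest count in the KO group. Every B16 KO library lay above every B16 control library. The length under islands over the whole genome also lay higher in every B16 KO library, and its part in this difference was not tested.

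**Figure D1:**
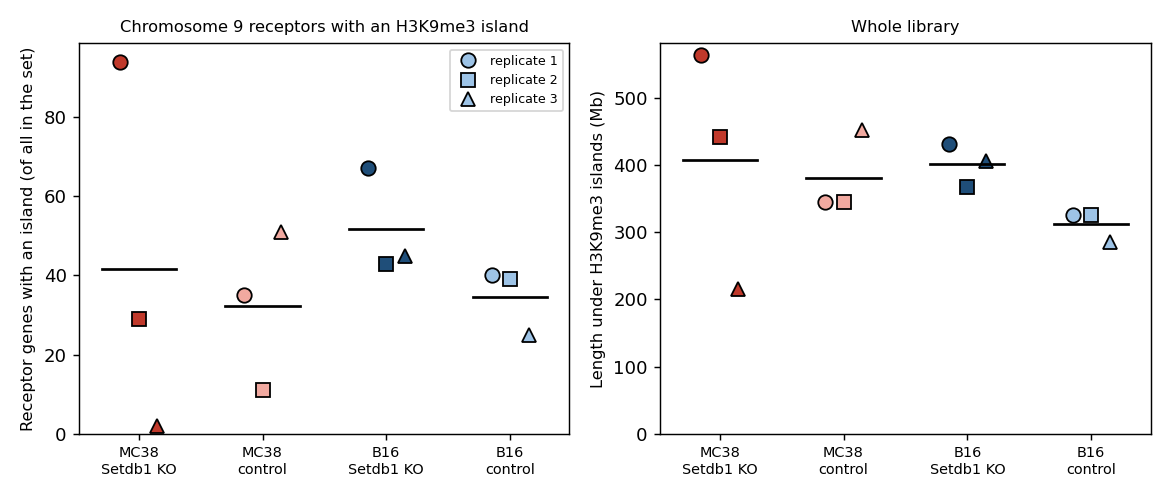
Left, number of the 133 chromosome 9 receptors whose region overlapped an H3K9me3 island, in each of 12 libraries. Right, total length under H3K9me3 islands in the same libraries, in Mb. Symbols are libraries 1 to 3 and lines are group means. MC38 Setdb1 KO 1 and 3 are the extremes of both panels, at 94 and 2 genes and at 563 and 215 Mb.

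Within each group, the libraries kept the same order in both clusters. Islands lay over 50.3%, 23.2% and 1.90% of the span of cluster 1 in MC38 KO libraries 1 to 3, and over 49.6%, 16.3% and 1.91% of cluster 2. In MC38 controls the cluster 1 values were 22.4%, 12.1% and 26.4%, and the cluster 2 values 18.7%, 7.90% and 24.9%. In B16 KO, 35.7%, 19.9% and 23.7% of cluster 1 and 30.7%, 16% and 19.6% of cluster 2 were covered. In B16 controls, 24.6%, 16.6% and 14.1% of cluster 1 and 20.8%, 18.8% and 13.1% of cluster 2 were covered. No island in either cluster was longer than 24.2 kb, so the called islands were many short stretches and none spanned a cluster. Weaker signal between islands has no value in these data, so a broader domain was not tested. The islands that touched a receptor had a median density of 41.3 to 72.3 reads per kb, in each library below the median over all its islands, which ran from 44.7 to 85.0 reads per kb.

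Seen gene by gene, 125 of the 133 receptors had an H3K9me3 island in at least 1 of 12 libraries and none had one in all 12. Islands in just 1 or 2 libraries were seen for 35 receptors (26.3%, against 14.1% of all genes). The 8 without any island were Olfr832, Olfr845, Olfr906, Olfr26, Olfr933, Olfr934, Olfr978 and Olfr986, and 12 more had their sole island in MC38 KO 1. Olfr24, the first gene of cluster 1, had an island in MC38 control 1 alone, at 8.74 RPM. Over all genes, 58.8% had an island in at least 1 library and 5.61% in all 12. An island in all 3 libraries of a group was seen for 1 receptor in MC38 KO and 1 in MC38 control, and for 24 in B16 KO and 17 in B16 control. As shares these were 0.752%, 0.752%, 18.1% and 12.8% of the receptors, in that order of groups, against 11.1%, 15.5%, 21.7% and 21.6% of all genes. The count in MC38 KO could not exceed the 2 receptors with an island in KO 3. Where no island was called, the value is given below as none. It is no measured absence of reads, and no fold change is given against a group in which all 3 libraries had none.

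**Figure D2:**
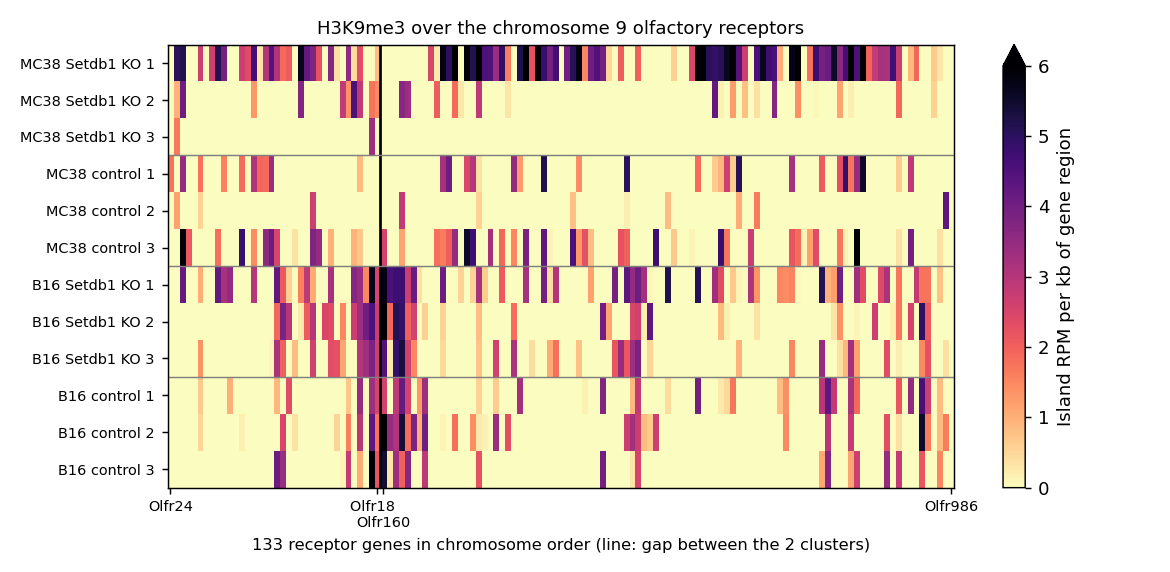
H3K9me3 island RPM per kb of gene region for the 133 receptors in chromosome order (columns) in 12 libraries (rows, 3 per group). RPM are island reads per 1000000 counted reads after scaling, the colour scale ends at 6 and the vertical line is the gap between the clusters. MC38 Setdb1 KO 1 is covered across both clusters, KO 3 almost nowhere, and the B16 libraries share a block at the facing ends of the clusters.

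Islands recurred in all libraries of a line at more receptors in B16 than in MC38. MC38 KO 3 had islands at only 2 receptors, so no more than 2 could have counted in MC38. Islands were present in all 6 B16 libraries at 12 receptors: Olfr872, Olfr873 and Olfr18 of cluster 1, and Olfr160, Olfr874, Olfr875, Olfr876, Olfr891, Olfr920, Olfr921, Olfr976 and Olfr981 of cluster 2. No receptor had an island in all 6 MC38 libraries. The 12 are 9.02% of the receptors, against 16.1% of all genes with an island in all 6 B16 libraries and 9.45% with one in all 6 MC38 libraries. Marking in all 6 libraries was less frequent in MC38 over all genes as well, and the receptors lay below the share of all genes in both lines. The 12 receptors averaged 1.19 to 5.58 RPM per kb in B16 KO and 1.00 to 4.72 RPM per kb in B16 control. Of the 12, 7 lay among 9 genes at the facing ends of the clusters, the last 4 of cluster 1 and the first 5 of cluster 2. This block was chosen after its values were seen and for its islands in B16. A high level in B16 was thus part of the choice, and the comparison of lines in this block is a description and no test. Its summed level was 0.913, 1.73 and 0.178 RPM per kb in MC38 KO and 0.255, 0.153 and 0.406 in MC38 control, and 3.41, 3.51 and 3.14 in B16 KO and 2.61, 2.70 and 2.06 in B16 control. With both ends pooled, all 6 B16 libraries lay above all 6 MC38 libraries in that block. In its 4 genes of cluster 1 the lines overlapped, with 1.865 RPM per kb in MC38 KO 2 and 1.717 in B16 control 3. In its 5 genes of cluster 2 they did not. The highest MC38 value there was 1.367 RPM per kb in KO 2, and the lowest B16 value was 2.449 in control 1. The other 124 receptors had 2.82, 0.343 and 0.0115 RPM per kb in MC38 KO and 0.742, 0.0969 and 1.06 in MC38 control, and 1.13, 0.514 and 0.489 in B16 KO and 0.485, 0.428 and 0.316 in B16 control, with the lines overlapping.

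Genes next to the block and within cluster 2 were described in the same way. Panx3, a pannexin channel gene 42.1 kb before Olfr160, had no H3K9me3 island in any MC38 library and averaged 36.1 ± 5.69 RPM in B16 KO and 12.4 ± 1.06 RPM in B16 control (adjusted p 0.00933 between the KO lines and 0.0156 between the control lines). Zfp560, a zinc finger gene 9.04 kb after Olfr18, had no H3K9me3 island in MC38 KO and averaged 11.4 ± 9.97 RPM in MC38 control, and 7.94 ± 10.5 RPM in B16 KO and 60.7 ± 27.5 RPM in B16 control (adjusted p 0.913 between the B16 groups). Tmem225, a transmembrane protein gene inside cluster 2 near its far end from the block, had an island in 1 library of either MC38 group, with means of 7.75 ± 13.4 RPM in MC38 KO and 9.18 ± 15.9 RPM in MC38 control. It had islands in all 6 B16 libraries, at 32.5 ± 9.90 RPM in B16 KO and 25.2 ± 4.94 RPM in B16 control. Tmem225 was not called (adjusted p 0.706 between the KO lines and 0.822 between the control lines). AW551984, another gene inside cluster 2, had higher means in MC38, at 21.3 ± 36.9 RPM in KO and 19.9 ± 17.8 RPM in control. Its B16 means were 9.315 ± 8.11 RPM in KO and 13.2 ± 9.54 RPM in control (adjusted p 0.899 between the KO lines and 0.985 between the control lines). Vwa5a, also inside cluster 2, had no H3K9me3 island in any library and H3K9Ac islands in all 12.

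Highest per kb over the 12 libraries were Olfr875, at 2.85 RPM per kb, Olfr160 at 2.79, Olfr873 at 2.73, Olfr874 at 2.01 and Olfr969 at 2.00. The first 4 had no island in MC38 KO 1, the library with the broadest coverage. Olfr875 had none, 18.4 and none RPM in MC38 KO and none, 14.3 and 5.74 in MC38 control, and 24, 24.4 and 26.5 RPM in B16 KO and 21, 26.9 and 10.0 in B16 control. The lowest of those tested, Olfr847, Olfr881, Olfr935, Olfr147 and Olfr836, had 11.7 to 13.6 RPM in MC38 KO 1 and at most 2.44 RPM in any other library. These lowest receptors reached the mean of at least 10 island reads needed for a test mainly through MC38 KO 1. Olfr24 and Olfr830, each with a sole island in an MC38 control, fell below it. Which libraries marked the lowest tested receptors thus depended in part on that filter.

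For the tests, counts of all genes with a mean of at least 10 island reads were fitted together with edgeR's quasi-likelihood test and p-values were adjusted over all of them. This left 113 of the 133 receptors among 25677 genes for H3K9me3. The other 20 had fewer reads and were not tested, and 8 of them are those with no island in any library. A gene was called at an adjusted p under 0.05.

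In B16, no receptor's H3K9me3 was called different between Setdb1 KO and control (0 of 113, against 0.312% of all genes tested). At an unadjusted p under 0.05 there were 5 of 113 (4.42%, against 7.73% of all genes), 4 higher and 1 lower in KO. DESeq2 called 15 (13.3%, against 8.3% of all genes). Limma called 0, but it took only genes with islands in every library compared, here the 12 receptors with islands in all 6 B16 libraries. Receptors lacking an island in some of these libraries could not be called by it. The mean level was higher in KO at 65 receptors (57.5%, against 45.2% of all genes) and lower at 25 (22.1%, against 40.95%). It was none in both groups at 23. The shares higher and lower were 55.7% and 19.1% of chromosome 7 receptors, and 17.1% and 5.46% of those of chromosome 2. The median difference on chromosome 9 was 0.254 RPM per kb, against 0.00 over all genes. All 3 KO libraries lay above all 3 controls at 6 receptors (5.31%, against 5.89% of all genes), namely Olfr862, Olfr867, Olfr39, Olfr874, Olfr884 and Olfr150. They lay below at 4 (3.54%, against 9.44%), namely Olfr870, Olfr878, Olfr149 and Olfr984.

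Olfr39, in the block at the end of cluster 1, had 12.6, 33.3 and 27.7 RPM in B16 KO and 0.292, none and none in B16 control (adjusted p 0.586), with none in the 6 MC38 libraries. Olfr150 had 19.8, 6.82 and 1.81 RPM in B16 KO and none in all 3 B16 controls (adjusted p 0.527), and Olfr862 had 5.50, 15.9 and 13.8 RPM in B16 KO and again none in the controls (adjusted p 0.598). In these 3 receptors the KO libraries were all above the controls, and none passed the test over all genes. Olfr870 ran the other way, with no island in B16 KO, against 3.51, 7.91 and 13.7 RPM in B16 control (adjusted p 0.560). Olfr878 had none, 2.95 and none in B16 KO, against 17, 20.4 and 14.7 RPM in B16 control (adjusted p 0.882). Olfr149 had 4.75, none and none in B16 KO, against 21.3, 14.5 and 18.4 RPM in B16 control, which again left a gap between the groups (adjusted p 1.00). The remaining leading receptors were lower by means that rested on 1 control library, Olfr887 at 8.82 RPM and Olfr25 at 11.6 RPM in B16 control 2, with none in the other 5 B16 libraries (adjusted p 0.624 and 0.629).

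At the 12 receptors with islands in all 6 B16 libraries, the fitted changes with KO were smaller than their standard errors. Olfr18 had 65.4, 71.1 and 69.5 RPM in B16 KO and 66.3, 46.1 and 57.3 RPM in B16 control. Olfr872 had 94.5, 93.3 and 84.0 RPM in B16 KO and 96.0, 82.4 and 28.7 RPM in B16 control. Both pairs of groups overlapped. Olfr874 had 27.8, 29.7 and 28.4 RPM in B16 KO and 16.8, 17.9 and 19.3 RPM in B16 control, with a log2 change of 0.67 ± 1.14 (SE) and an adjusted p of 1.00. Its KO libraries were all above its controls. The fitted log2 changes of the 12 lay between -0.59 at Olfr981 and 1.07 at Olfr920, each with a standard error above 1 and an adjusted p of 1.00, so a change of either sign and of a size above the fitted one is not excluded by these libraries.

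In MC38, no receptor's H3K9me3 was called between Setdb1 KO and control either (0 of 113, against 0.136% of all genes). At an unadjusted p under 0.05 there were 9 (7.96%, against 6.85% of all genes), 6 higher and 3 lower in KO. DESeq2 called 14 (12.4%, against 7.69%). The mean was higher in KO at 72 receptors (63.7%, against 36.85% of all genes) and lower at 27 (23.9%, against 40.2%). The shares higher and lower were 46.4% and 35.6% of chromosome 7 receptors, and 81.8% and 17.8% of those of chromosome 2. The median difference on chromosome 9 was 0.633 RPM per kb, against 0.00 over all genes. Without KO 1, which had islands at 94 receptors, the KO libraries averaged 15.5 marked receptors, against 32.3 in the controls, and without KO 3 they averaged 61.5. No receptor had all 3 KO libraries above the controls (0.596% of all genes did), and 1 had all of them below (0.885%, against 1.73%). That was Olfr919, with none in the 3 KO libraries and 24.9, 0.969 and 9.83 RPM in the controls (adjusted p 0.687). Olfr18 had 21.1, 38.6 and none RPM in MC38 KO and none in all 3 controls (adjusted p 0.431). Olfr873 had none, 8.61 and 16.6 RPM in MC38 KO and none in the controls (adjusted p 0.468). Both had an island in 2 KO libraries and in no control, and both missed the threshold. Olfr921 rested on 1 library, with 14.4 RPM in MC38 KO 1 and none in the other 5 (adjusted p 0.569). Olfr160 had none in MC38 KO and 12.6 RPM in MC38 control 3 alone (adjusted p 0.568). Olfr898 had none in MC38 KO and 17.3, none and 7.53 RPM in MC38 control (adjusted p 0.729). In these 3 receptors the groups overlapped, since libraries of both had no island. The calls depended on which KO library was left out. Olfr873 had no island in KO 1 and Olfr18 none in KO 3, so leaving out that library left an island in every remaining KO library. The part of the broad or narrow coverage of KO 1 and KO 3 was not tested. With KO 1 left out Olfr873 was called, with KO 3 left out Olfr18 was called, and with KO 2 as the sole KO library Olfr18, Olfr873 and Olfr876 were called, on the assumption that it varies like the other groups.

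The effect of Setdb1 KO was not called different between MC38 and B16 for any receptor (0 of 113, against 0.397% of all genes). At an unadjusted p under 0.05 there were 13 (11.5%, against 9.38% of all genes), 7 with a higher and 6 with a lower KO effect in MC38 than in B16. DESeq2 called 25 (22.1%, against 11.6%). Leaving out MC38 KO 1 led to a call of Olfr873 and leaving out MC38 KO 3 to a call of Olfr18, and both were called with MC38 KO 2 alone. The smallest adjusted p was 0.407, for Olfr18 and Olfr870. Olfr870 had 17.5, 6.74 and none RPM in MC38 KO and none in MC38 control, against the opposite order in B16 given above.

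Between the lines, 5 receptors had lower H3K9me3 in MC38 control than in B16 control and none was higher. Those 5 are 4.42% of the 113 tested, against 4.31% of all genes lower and 7.13% called in either direction, so the share was near the background. They were Olfr874 (adjusted p 0.0145), Olfr18 (0.0256), Olfr981 (0.0317), Olfr873 (0.0419) and Olfr920 (0.0432). All 3 MC38 controls lay below all 3 B16 controls at 13 receptors (11.5%, against 20.7% of all genes) and above at 0 (against 13.6%). Between the KO lines 3 receptors were lower in MC38, Olfr874 (0.0103), Olfr920 (0.0283) and Olfr981 (0.0293). That was 2.65% of those tested, against 5.02% of all genes lower and 8% in either direction. No overlap was seen at 15 receptors below (13.3%, against 19.5%) and at 1 above (0.885%, against 8.76%).

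Olfr874 (chr9:37745300-37747106) had no island in any of the 6 MC38 libraries and 16.8 to 29.7 RPM in all 6 B16 libraries. Olfr920 (chr9:38752796-38756863) had none in MC38 KO and MC38 control, and 28, 19.9 and 26.7 RPM in B16 KO and 7.02, 26.2 and 2.38 RPM in B16 control. Olfr981 (chr9:40022395-40023327) had none in MC38, and 8.66, 24.3 and 7.25 RPM in B16 KO and 22.7, 27.1 and 10.6 RPM in B16 control. These 3 were marked in every B16 library and in no MC38 library, in both genotypes. They reached the reads needed for a test through B16 alone, so no direction other than lower in MC38 was possible. Olfr18 (chr9:20313892-20336094) and Olfr873 (chr9:20300211-20301170), neighbours in the block, differed from them in having islands in 2 of 3 MC38 KO libraries each. Olfr873 had 28.3, 22.6 and 19.3 RPM in B16 KO and 16.6, 21.3 and 29.4 RPM in B16 control. Of these 5, only Olfr874 kept an adjusted p under 0.05 in both line comparisons under 20 of 20 alternative settings in which it could be tested. With stricter islands it had too few reads for a test. With 1 library of either control group left out, Olfr874 was the only one of the 5 still called between the control lines.

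**Figure D3:**
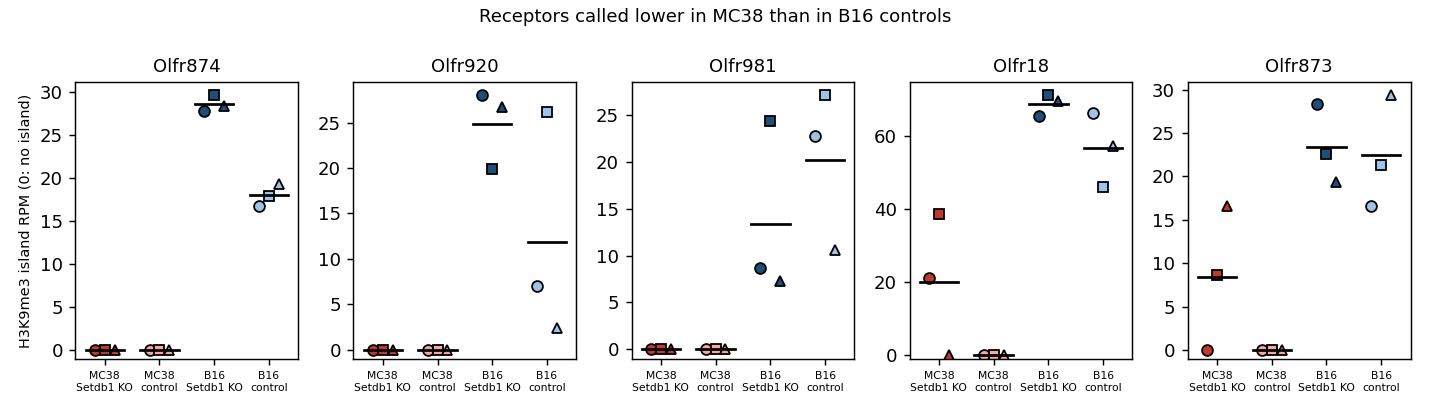
H3K9me3 island RPM in each of 12 libraries (symbols, libraries 1 to 3; lines, group means; 0, no island called) for the 5 receptors called lower in MC38 control than in B16 control. Olfr874, Olfr920 and Olfr981 are at 0 in all 6 MC38 libraries, and Olfr18 reaches 38.6 in MC38 Setdb1 KO 2.

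Receptors that stood higher in MC38 did not pass the test. Olfr828 had 24.8, 4.77 and 8.28 RPM in MC38 KO and none, 5.82 and none in MC38 control, and none in the 6 B16 libraries (adjusted p 0.173 between the KO lines). It was the receptor with an island in every MC38 KO library. Olfr829 had 17.1, none and 30.1 RPM in MC38 control and none in B16 control (adjusted p 0.198). Olfr150 and Olfr862 also had islands in 2 of 3 MC38 controls and in no B16 control (adjusted p 0.150 and 0.172).

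The receptor clusters of other chromosomes set these values in context. Of 289 receptors on chromosome 2, 95.2%, 46.0% and 8.65% had an H3K9me3 island in MC38 KO and 54.0%, 21.5% and 66.8% in MC38 control, and 12.5%, 5.19% and 8.997% in B16 KO and 8.30%, 5.19% and 2.42% in B16 control. On chromosome 9 the same shares were 70.7%, 21.8% and 1.504% in MC38 KO and 26.3%, 8.27% and 38.3% in MC38 control, and 50.4%, 32.3% and 33.8% in B16 KO and 30.1%, 29.3% and 18.8% in B16 control. The order of the 6 MC38 libraries was the same on both chromosomes, while on chromosome 2 all B16 controls lay below all MC38 controls and on chromosome 9 they did not. Between the control lines, 6 chromosome 2 receptors were called higher and 0 lower of 275 tested, against 0 and 5 of 113 on chromosome 9 and 0 and 5 of 194 on chromosome 7. The shares called were 2.18%, 4.42% and 2.58%, each below the 7.13% of all genes called in either direction. Of the 25677 genes tested, 725 were called higher and 1107 lower. Chromosome 7 receptors, at 56.5%, 34.3% and 5.44% in MC38 KO and 36.8%, 22.6% and 48.1% in MC38 control, and 46.4%, 28.03% and 33.5% in B16 KO and 23.01%, 23.8% and 19.7% in B16 control, stood closer to those of chromosome 9. Over all genes the share moved far less, between 18.97% and 34.0%.

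**Figure D4:**
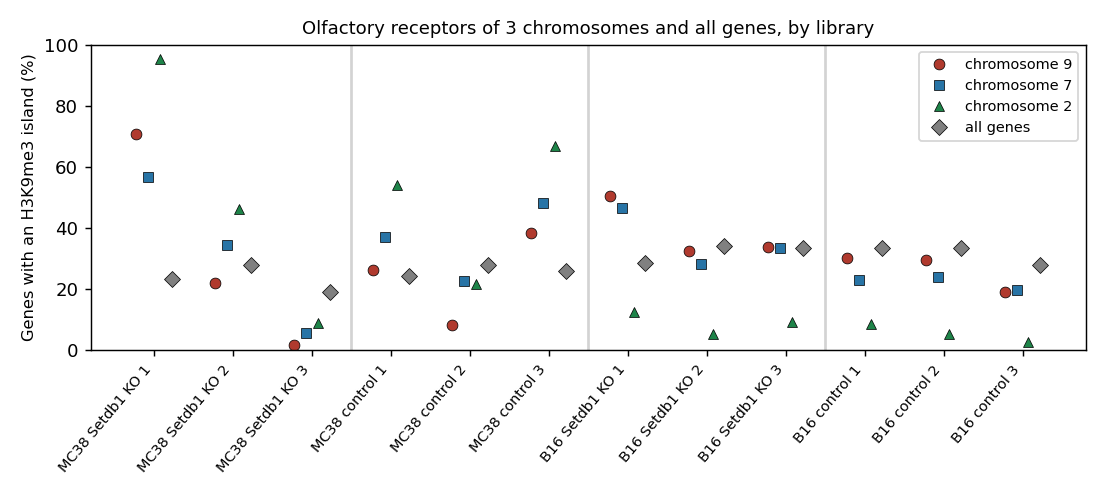
Share of genes with an H3K9me3 island in each of 12 libraries, for receptors of chromosome 9 (133), chromosome 7 (239), chromosome 2 (289) and for all genes (49554). Chromosome 9 receptors span 1.504% to 70.7% over the libraries and all genes 18.97% to 34.0%.

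Few receptors had a called H3K9Ac island. Of the 133, 127 (95.5%) had no H3K9Ac island in any of 12 libraries, against 30.5% of all genes. The 6 with one were Olfr151, Olfr874, Olfr957, Olfr983, Olfr984 and Olfr986, and 4 of them (Olfr957, Olfr983, Olfr984 and Olfr986) had enough reads to be tested among 33363 genes. None of the 4 was called between KO and control in B16 (against 0.0839% of all genes) or in MC38 (against 0.126%), or for the difference of the KO effects (against 0.174%), and 0 of 4 had an unadjusted p under 0.05 or were called by DESeq2. With MC38 KO 1 left out, Olfr986 was called in MC38 and for the difference.

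Olfr983 had the most H3K9Ac of the receptors. There was no H3K9Ac island in any MC38 library, and there were 9.12, 11.2 and 4.97 RPM in B16 KO and 11.5, 13.6 and 6.32 RPM in B16 control. The 3 libraries of either B16 group lay above all MC38 libraries, and KO and control overlapped within B16. H3K9Ac was called lower in MC38 at this 1 of 4 receptors, between the KO lines (adjusted p 0.00120, with 17.9% of all genes called in either direction) and between the control lines (0.000954, with 19.4%). Olfr957, Olfr983 and Olfr984 had H3K9Ac islands near or over them in B16 only, and reached the reads needed for a test through B16 alone. For them no direction other than lower in MC38 was possible. The islands of Olfr983 lay around the annotated start of the gene, whose promoter is shown above. In B16 KO 1 the island was 3400 bp long and in B16 control 1 it was 3200 bp, and both crossed the start. In B16 KO 3 and B16 control 3 it lay between 0.843 and 2.04 kb upstream and did not cross it. Counted over the gene without the 2 kb on both sides, the difference between the lines was no longer called. H3K9me3 islands over Olfr983 were seen in MC38 KO 1 and 2 only, at 3.72 and 3.01 RPM, too few to be tested.

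**Figure D5:**
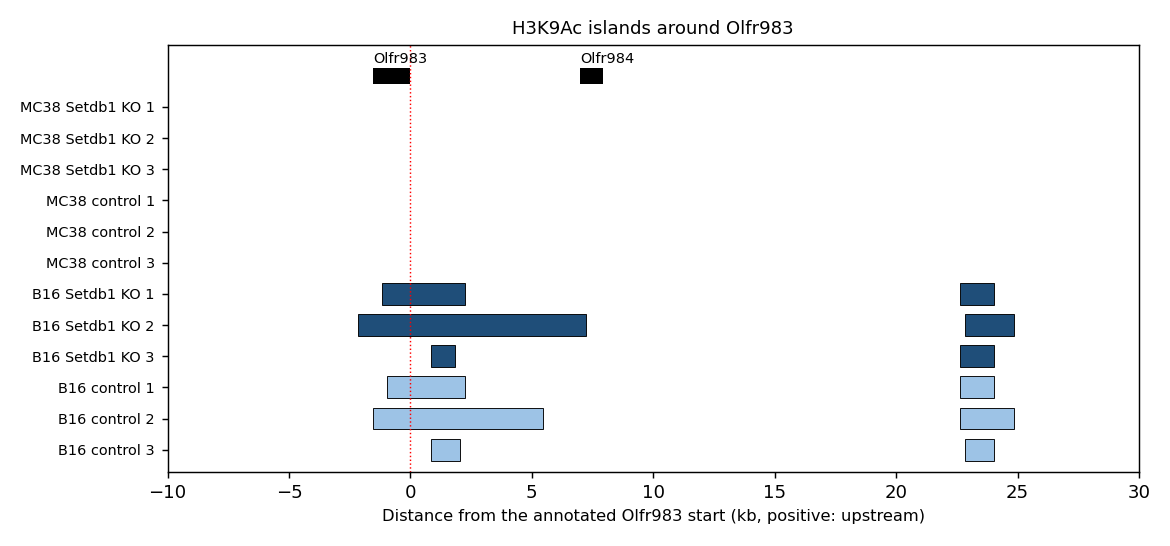
H3K9Ac islands (bars) within 10 kb downstream and 30 kb upstream of the annotated start of Olfr983, in 12 libraries, with the genes Olfr983 and Olfr984 in black. The 6 B16 libraries have an island at or just upstream of the start, ending between 1.84 and 7.24 kb upstream, with another island farther upstream, and the 6 MC38 libraries have none in this window.

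Olfr986, the last gene of cluster 2, had H3K9Ac islands in 10 of 12 libraries, at 2.14, none and none RPM in MC38 KO and 3.44, 3.00 and 2.65 RPM in MC38 control, and 3.00, 4.02 and 3.17 RPM in B16 KO and 3.36, 4.69 and 2.96 RPM in B16 control. It had no H3K9me3 island in any library. The zinc finger gene Zfp202 lies 4.22 kb beyond it and had H3K9Ac in every library, at 23.7 ± 2.26 RPM in MC38 KO and 24.5 ± 8.74 RPM in MC38 control, and 30.6 ± 3.40 RPM in B16 KO and 35 ± 3.02 RPM in B16 control. Its part in the value of Olfr986 was not tested. Olfr984, the gene upstream of Olfr983, had H3K9Ac in B16 KO 2, at 6.09 RPM, and in B16 control 2, at 1.74 RPM, the libraries in which the island of Olfr983 was longest.

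Genes that act with the receptors were taken as lists. Of 20 olfactory signalling genes, among them Gnal, the G protein alpha subunit of olfactory neurons, and Adcy3, their adenylyl cyclase, 13 were tested for H3K9me3 and 18 for H3K9Ac. None was called with Setdb1 KO in either line or mark, and neither was any of the 15 genes of receptor choice, among them Lhx2, Emx2, Ebf1 and the lamin B receptor gene Lbr (7 tested for H3K9me3 and 15 for H3K9Ac). Between the control lines, H3K9Ac of 1 signalling gene was higher in MC38 and that of 4 was lower (5 of 18), and 2 of 15 choice genes were called, where 19.4% of all genes were. The higher one was Slc12a2, a sodium, potassium and chloride cotransporter, at 71.9 ± 7.88 RPM in MC38 control and 8.18 ± 4.87 RPM in B16 control (log2 difference 3.13 ± 0.40 SE, adjusted p 0.000691). The lower ones were Adcy3, Slc24a4, Gnb1 and the phosphodiesterase gene Pde1c, which had 15.1 ± 1.74 RPM in MC38 control and 211 ± 74.0 RPM in B16 control (log2 difference -3.80 ± 0.43 SE, adjusted p 0.000349). Of the choice genes, Ehmt1, an H3K9 methyltransferase gene, was higher at 306 ± 33.8 RPM in MC38 control and 197 ± 31.6 RPM in B16 control. Dlx5, a homeodomain factor, was lower, with no island in MC38 control and 6.47 ± 0.838 RPM in B16 control (adjusted p 0.00766 and 0.00112). For H3K9me3 no gene of either list was called between the control lines (7.13% of all genes were). Between the KO lines the same genes were called for H3K9Ac in the same directions, with Reep1, a receptor transport gene, as a second higher signalling gene at 118 ± 37.4 RPM in MC38 KO and 56.8 ± 10.4 RPM in B16 KO (adjusted p 0.0392). For H3K9me3, 2 of 13 signalling genes were called between the KO lines (8% of all genes were). Pde1c was higher, at 1620 ± 506 RPM in MC38 KO and 685 ± 27.9 RPM in B16 KO (log2 difference 1.24 ± 0.31 SE, adjusted p 0.0311), and Reep1 was lower, with no island in MC38 KO and 360 ± 169 RPM in B16 KO (adjusted p 0.0094).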

How the data were processed

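H3K9me3 and H3K9Ac were measured in 24 libraries, 3 in each of 4 groups per mark. Per the submitters' processing notes, reads were handled with cutadapt, Bowtie2 2.1.0, SAMtools 0.1.8, SICER 1.1 and deepTools 3.1.1 on mm10. The files name a window of 200, a gap of 600 and an FDR of 0.05. The deposited unit is the count of reads in each island of 1 library, unscaled, per the labels and from the values. The input used and the read filters are not given in the sources used here. Regions outside islands have no value, which removes weak signal.

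Island reads were apportioned by overlap to gene regions (2 kb flanks, GRCm38.p6 RefSeq table) and rounded. Counts were tested with edgeR 4.0.16 (quasi-likelihood, TMM, 12 libraries per mark, Benjamini-Hochberg over all genes, mean of at least 10 reads), with DESeq2 1.42.0 and limma 3.58.1 as alternatives. The edgeR steps were also run on simulated counts, with changes only in genes of higher counts. The simulation did not model libraries without a called island, so it does not show how the test behaves at these receptors. RPM are island reads per 1000000 counted reads after TMM scaling. Members, lists and the rule for named genes were chosen with earlier results of these data known. The rule took called receptors, the 3 with the smallest p per contrast and direction, cluster ends, the 5 highest and 5 lowest H3K9me3 levels per kb, and those with H3K9Ac. Its part on protein identity was not used here, and receptors outside it are named from counts of non-overlapping groups or islands. Replicate numbers paired the H3K9Ac libraries, as a hint from the data: same-numbered KO and control libraries deviated together, with correlations of 0.156 to 0.531. For H3K9me3 the same correlations ran from -0.254 to 0.308, so pairing was not clear.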

Additional observations from a re-analysis of the deposited data

How the results depend on the processing

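For the comparisons of receptors called, the values in order are B16 KO, MC38 KO, difference of KO effects, KO lines and control lines, with 0, 0, 0, 3 and 5 called for H3K9me3. DESeq2 called 15, 14, 25, 18 and 31 (the last 2 are 15.9% and 27.4% of receptors, against 27.2% and 26.7% of all genes). With DESeq2's size factors in edgeR, the control lines gave 2. Islands at or above their library's median density gave 1 for the KO lines and 0 for the control lines, gene bodies without flanks gave 1 and 2, and fits to the 6 libraries compared gave 8 for the control lines. With MC38 KO represented by replicate 2 alone, chosen after seeing the data, MC38 KO gave 3 and the difference 2. The cause of these moves was not tested. Leaving out each library gave 0 to 0 in B16 KO, 0 to 1 in MC38 KO, 0 to 1 for the difference, 1 to 4 for the KO lines and 1 to 6 for the control lines. A replicate block, though pairing was not clear for these libraries, gave 0, 0, 0, 3 and 4.

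For H3K9Ac, with 0, 0, 0, 1 and 1 called, gene bodies gave 0 for both line comparisons and limma 0 for the control lines. Limma took only genes with islands in every library compared and so could not test Olfr983 there. Without MC38 KO replicate 1, Olfr986 was called, so that leaving out each library gave 0 to 1 in MC38 KO, 0 to 1 for the difference, 1 to 2 for the KO lines and 1 to 1 for the control lines. Pairing by a replicate block changed no H3K9Ac count (0, 0, 0, 1 and 1).

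Receptors with an H3K9me3 island, in the order MC38 KO, MC38 control, B16 KO and B16 control, averaged 15.5 to 61.5, 23 to 43.0, 44.0 to 56.0 and 32.0 to 39.5 when each library was left out. With at least 50% of the region covered, MC38 control, B16 KO and B16 control averaged 8.33, 24.7 and 13. Stricter islands gave 8.33, 15.3 and 10.0, and gene bodies gave 31.3 in B16 KO and 20 in B16 control. Summed RPM per kb (1.04, 0.592, 1.01 and 0.644) ranged over 0.266 to 1.55, 0.395 to 0.836, 0.824 to 1.13 and 0.602 to 0.708 without 1 library. Stricter islands gave 0.527 in B16 KO and 0.271 in B16 control, and gene bodies 1.39 and 0.915. The median RPM per kb (0.882, 0.00, 0.0189 and 0.00) ranged over 0.00 to 1.32 in MC38 KO and 0.00 to 0.0283 in B16 KO and stayed at 0.00 in both controls. A reversed sign was looked for only in the results called in a line comparison, and none was found. In each of them the MC38 group had no island in any library, so the check could hardly have come out otherwise. Limma had no receptor with H3K9me3 islands in every library outside the B16 KO comparison and gave no value there. Depth limits what an island can show: 15200766 reads in H3K9me3 islands was the least.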
